A study of Rattus norvegicus with 4 samples.

Results

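The enzymes described here build the sphingolipids of myelin, and they were taken as every probe set that the platform annotation pairs with exactly 1 of 10 gene symbols: Sptlc1, Sptlc2, Elovl1, Cers2, Degs1, Fa2h, Ugt8, Gal3st1, Ugcg and Sgms1. The rule goes by gene symbol alone. Of these 10 genes, 8 were represented, by 12 probe sets, among the 14217 single-symbol genes of the array, and no probe set carries the symbol Sptlc1 or Sptlc2 alone. The study lowered Sox10, a transcription factor of peripheral glia, in RT4D6 cells, a rat Schwannoma line, that is, a tumour line of Schwann cells. RNA was profiled 48 h after wild type siRNA for Sox10 (the specific siRNA, 2 arrays) or mutant siRNA for Sox10 (the control, 2 arrays), with all 4 samples from this 1 line. The labels number the arrays of each group as replicate 1 and replicate 2, the submitters describe 2 sets of paired cells, and p-values measure only the spread between these samples.

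Sphingolipids are built on ceramide. Serine palmitoyltransferase starts the pathway, ceramide synthases attach a fatty acid, and a desaturase completes the ceramide, which is then a shared substrate. Galactosyltransferase turns it into galactosylceramide, the characteristic glycolipid of myelin, a sulfotransferase adds sulfate to give sulfatide, and other enzymes of the Golgi turn ceramide into glucosylceramide, the parent of gangliosides, or into sphingomyelin. Schwann cells and oligodendrocytes are known for very long and 2-hydroxylated acyl chains in their galactolipids.

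Loss of Sox10 was accompanied by lower RNA for the galactolipid enzymes Ugt8 and Gal3st1 and higher RNA for Ugcg, the enzyme that puts glucose on ceramide. On the log2 scale the changes were -1.84 for Ugt8, -2.35 for Gal3st1 and 1.50 for Ugcg (specific minus mutant siRNA, standard errors 0.41, 0.40 and 0.30). The Ugt8 probe set was tested only because the 2 mutant siRNA arrays, where it is high, reached the array median. Its call is therefore not independent of that filter. Without mutant siRNA replicate 1 Ugt8 was at -1.39, and without mutant siRNA replicate 2 Ugcg was at 1.36. Elovl1, Cers2 and the brighter Sgms1 probe set, with changes between -0.00 and 0.19, did not pass the test. Degs1 gave no single direction over its 3 probe sets, and Fa2h had a low but very uncertain estimate.

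The region upstream of the galactolipid genes is shown because these are the members with the lowest estimates, and because the study searched for Sox10 sites with the core ACAAT or its complement ATTGT. Of the 10 genes, 9 have an entry in the RefSeq promoter table for rat (build GRCr8), all but Ugcg. Each entry runs from 250 bases before to 50 after its own start, which for Gal3st1, Elovl1 and Sgms1 lies inside the annotated gene. The Gal3st1 gene begins at 83094265, so part of its printed stretch is within the gene. The 250 bases before the start of the entry are printed, with matches to CCAAT and GGGCGG on either strand in capitals.
Ugt8, chr2:217007168-217007417, minus strand: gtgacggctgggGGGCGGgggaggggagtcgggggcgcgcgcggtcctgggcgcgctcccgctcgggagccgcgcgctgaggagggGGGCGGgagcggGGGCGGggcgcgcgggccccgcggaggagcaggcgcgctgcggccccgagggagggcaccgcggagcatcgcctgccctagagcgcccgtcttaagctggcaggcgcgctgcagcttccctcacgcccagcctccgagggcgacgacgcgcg
Gal3st1, chr14:83094135-83094384, plus strand: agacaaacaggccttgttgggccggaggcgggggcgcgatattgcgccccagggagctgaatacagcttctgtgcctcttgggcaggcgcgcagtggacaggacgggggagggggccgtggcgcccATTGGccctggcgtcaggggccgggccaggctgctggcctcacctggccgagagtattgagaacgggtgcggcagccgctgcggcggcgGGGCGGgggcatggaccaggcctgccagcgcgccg
Fa2h, chr19:56273481-56273730, minus strand: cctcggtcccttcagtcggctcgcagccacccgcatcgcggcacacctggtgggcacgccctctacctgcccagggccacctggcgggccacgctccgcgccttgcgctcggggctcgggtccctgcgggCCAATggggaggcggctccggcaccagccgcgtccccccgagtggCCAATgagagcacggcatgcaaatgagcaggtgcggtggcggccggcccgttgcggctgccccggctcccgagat

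None of the 9 windows of 300 bases holds ACAAT on either strand, a core found in 33.7% of all 33469 windows of that length in the table. The related core ACAAAG, or CTTTGT on the other strand, was in 2 of the 9 windows, those of Elovl1 and Sptlc1, and in 18.8% of all windows. GGGCGG or CCGCCC, the core of GC boxes, was in 7 of 9, with 3 matches in Ugt8, and in 33.1% of all windows. CCAAT or ATTGG was in 4 of 9, among them Fa2h and Gal3st1, and in 37.5% of all. The matches in the printed sequences do not overlap each other. The stretches are rich in G and C, at 81.2% in Ugt8, 72.4% in Gal3st1 and 74.4% in Fa2h, against a median of 51.2% over all entries. These are matches of letters in a short window, and nothing follows from them about where Sox10 binds.

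The deposited values were MAS5 signals, scaled so that every array had the same 2% trimmed mean of 500.2. The median signal was 105 and 101 under the specific siRNA and 108 and 110 under the mutant siRNA, and the 25th percentile, below which a signal is treated here as near background, was between 26.2 and 31.0. Sox10 itself had signals of 163 and 335 under the specific siRNA and 2873 and 2890 under the mutant siRNA. Of 12 markers of Schwann cells and glia 9 were measured and 8 tested, 6 of them lower and none higher. Sox10, the target of the siRNA, is among the 6. Over all tested probe sets 12.1% were lower and 14.6% higher at an adjusted p under 0.05. Egr2 and Prx did not pass, at -0.07 and 0.11 (adjusted p = 0.951 and 0.866 from limma). The summed signal of the 9, Sox10 included, was 4556 and 4663 under the specific siRNA against 24820 and 16770 under the mutant siRNA. Of 6 smooth muscle markers 3 were tested and 2, Acta2 and Tagln, were higher. Myh11 did not pass, at 1.37 (adjusted p = 0.137 from limma). The summed signal over all 6 was 23650 and 28290 under the specific siRNA against 6083 and 10510 under the mutant siRNA. Most of that sum was Tagln, at 21242 and 22657 against 5482 and 9015. The other smooth muscle markers Cnn1, Des and Actg2 were under the array median on all 4 arrays, as were 6 of 7 oligodendrocyte, 5 of 6 fibroblast, 5 of 5 macrophage and 2 of 5 melanocyte markers, and no marker was listed at 0. Myrf, the 1 oligodendrocyte marker tested, was lower at -2.58 (adjusted p = 0.0300 from limma). Its signals were 19.9 and 85.3 under the specific siRNA and 269 and 251 under the mutant siRNA, the first of them under the 25th percentile of its array. Myrf and the glial marker Erbb3 reached the array median on the 2 mutant siRNA arrays alone, the group where they are high. Probe sets were tested if they reached it on at least 2 arrays, so these 2 calls are not independent of that filter. The tested fibroblast and melanocyte markers did not pass. The part of these marker shifts in the results below was not tested, and in bulk RNA fewer cells of a type and less RNA per cell cannot be told apart. Actin, read by control probe sets at both ends of its transcript, gave a 3'/5' ratio of 1.54 and 1.39 under the specific siRNA, and 1.87 and 1.52 under the mutant siRNA, while Gapdh gave ratios between 1.06 and 1.11.

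Signals were turned to log2, centred on the median of each array and tested with limma over the 16125 probe sets that reached the array median on at least 2 arrays, with p-values adjusted by Benjamini-Hochberg over all of them. Of the 12 member probe sets, 10 were tested. Of these, 3 were lower and 1 was higher at an adjusted p under 0.05, while 12.1% of all tested probe sets were lower and 14.6% higher, 26.7% in either direction. Both specific siRNA arrays lay below both mutant siRNA arrays in 5 of the 10, against 28.3% of all tested probe sets, and above them in 2, against 40.4%. The median change over the 10 was -0.22, beside 0.13 over all tested probe sets. Degs1 enters with 3 probe sets, so this median and the counts are over probe sets and not genes. Its probe set 1391406_at is among the 3 lower, and 1391406_at and 1386022_at are among the 5, while its brightest, 1367770_at, was at 0.44. No shift of the enzymes as a set is read from these values. Ugt8 (1368858_at) and Fa2h passed the filter through the 2 mutant siRNA arrays alone, the group where they are high. Their places in these counts are therefore not independent of the filter. The counts describe the 10 that passed and not the whole pathway.

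**Figure D1:**
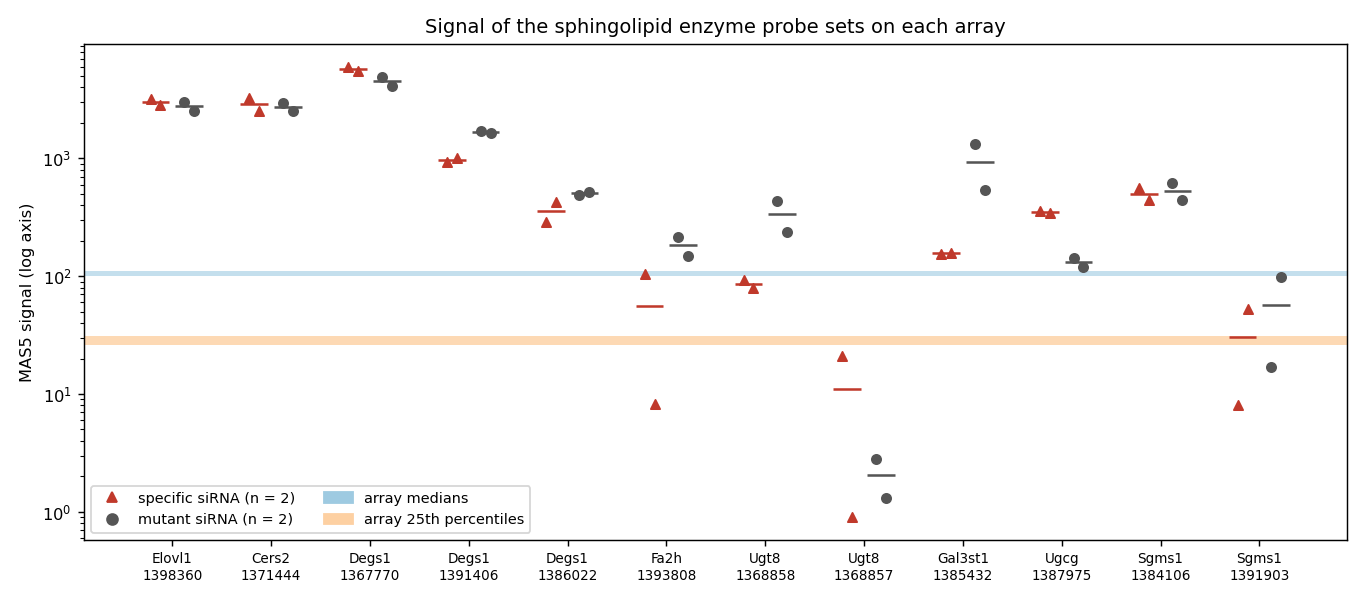
MAS5 signal on a log axis for the 12 probe sets of the 8 measured enzymes, with red triangles for the 2 specific siRNA arrays, grey circles for the 2 mutant siRNA arrays and a horizontal line at each group mean. The blue band spans the array medians and the orange band the 25th percentiles, with the Ugt8 probe set 1368857_at wholly under the orange band and the Gal3st1 arrays far apart between groups.

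Elovl1 makes the very long chain acyl-CoAs that ceramide synthase 2 uses. Its signal was 3163 and 2819 under the specific siRNA and 3012 and 2548 under the mutant siRNA. The groups overlapped, and the log2 fold change was 0.19 (95% interval -0.22 to 0.60, adjusted p = 0.465 from limma).

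Cers2, the ceramide synthase for very long acyl chains, had signals of 3239 and 2512 under the specific siRNA and 2961 and 2501 under the mutant siRNA. The arrays of a group differed from each other by more than the groups did. The log2 fold change was 0.15 (95% interval -0.30 to 0.59, adjusted p = 0.600 from limma), and the direction turned without specific siRNA replicate 1.

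Degs1, the desaturase that turns dihydroceramide into ceramide, was represented by 3 probe sets that disagreed. The brightest, 1367770_at, had signals of 6022 and 5554 under the specific siRNA and 4944 and 4090 under the mutant siRNA, so that both specific siRNA arrays were the higher ones. Its log2 fold change was 0.44 (standard error 0.17) and did not pass the test (adjusted p = 0.0855 from limma), although it did with same-numbered arrays taken as pairs (adjusted p = 0.0250). A further probe set, 1391406_at, ran the other way, with 934 and 999 (specific) against 1704 and 1644 (mutant). Here the arrays within each group lay close together and the groups did not overlap, at -0.71 ± 0.19 on the log2 scale (estimate and standard error, adjusted p = 0.0275 from limma). The call did not outlast leaving out specific siRNA replicate 1, mutant siRNA replicate 1 or mutant siRNA replicate 2 (adjusted p = 0.0844, 0.133 and 0.102). The remaining probe set, 1386022_at, had 291 and 423 under the specific siRNA and 488 and 520 under the mutant siRNA, and was at -0.44 ± 0.27 (adjusted p = 0.244 from limma). Without specific siRNA replicate 1 it was -0.15. The annotation ties the first to a RefSeq transcript and the other two to expressed sequence tags, and does not say which part of the transcript each one reads. The direction of Degs1 RNA was therefore not settled.

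Fa2h puts the 2-hydroxyl group on the fatty acids of myelin galactolipids. Its signals were 103 and 8.20 under the specific siRNA and 216 and 149 under the mutant siRNA. Both specific siRNA arrays were lower than both mutant siRNA arrays, but specific siRNA replicate 2 lay under the 25th percentile of its array, so that the size of the change rests on a signal near background. The log2 fold change was -2.54 (95% interval -5.04 to -0.05), and it did not pass the test (adjusted p = 0.115 from limma), although it did with same-numbered arrays taken as pairs (adjusted p = 0.0349). It was -4.34 and called without specific siRNA replicate 1 (adjusted p = 0.00859) and -0.74 without specific siRNA replicate 2. Between the replicate 1 arrays the difference was -1.03, and between the replicate 2 arrays it was -4.06.

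Ugt8, the ceramide galactosyltransferase, makes galactosylceramide. In the probe set 1368858_at the signal was 92.0 and 78.7 under the specific siRNA and 436 and 239 under the mutant siRNA. The specific siRNA arrays lay close together at 0.875 and 0.777 times their array medians, while the mutant siRNA arrays stood at 4.05 and 2.16 times theirs. The log2 fold change was -1.84 (95% interval -2.77 to -0.91, adjusted p = 0.0142 from limma), a 3.59-fold decrease, and the difference was -2.21 between the replicate 1 arrays and -1.48 between the replicate 2 arrays. Without mutant siRNA replicate 1, the brightest array for this gene, it was -1.39 and no longer called (adjusted p = 0.138). The other Ugt8 probe set, 1368857_at, had signals of 21.0 and 0.900 under the specific siRNA and 2.80 and 1.30 under the mutant siRNA, all under the 25th percentile, and gives no fold change. The measurement of Ugt8 thus rests on 1 probe set, which passed the filter through the 2 mutant siRNA arrays alone, the group where it is high.

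Gal3st1, the cerebroside sulfotransferase, turns galactosylceramide into sulfatide. Its signals were 155 and 158 under the specific siRNA and 1313 and 539 under the mutant siRNA. The specific siRNA arrays were nearly equal, and the spread lay in the mutant siRNA arrays (mean 156 ± 2.47 under the specific siRNA and 926 ± 548 under the mutant siRNA, SD, n = 2 each). The log2 fold change was -2.35 (95% interval -3.26 to -1.44, adjusted p = 0.00593 from limma), a 5.09-fold decrease. Of the called members, Gal3st1 alone kept its call in each of the 13 alternatives fitted with limma, with changes between -3.01 and -1.69. The lower of these sizes was reached without mutant siRNA replicate 1, the array on which the actin ratio was 1.87. Whether that ratio bears on Gal3st1 was not tested.

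**Figure D2:**
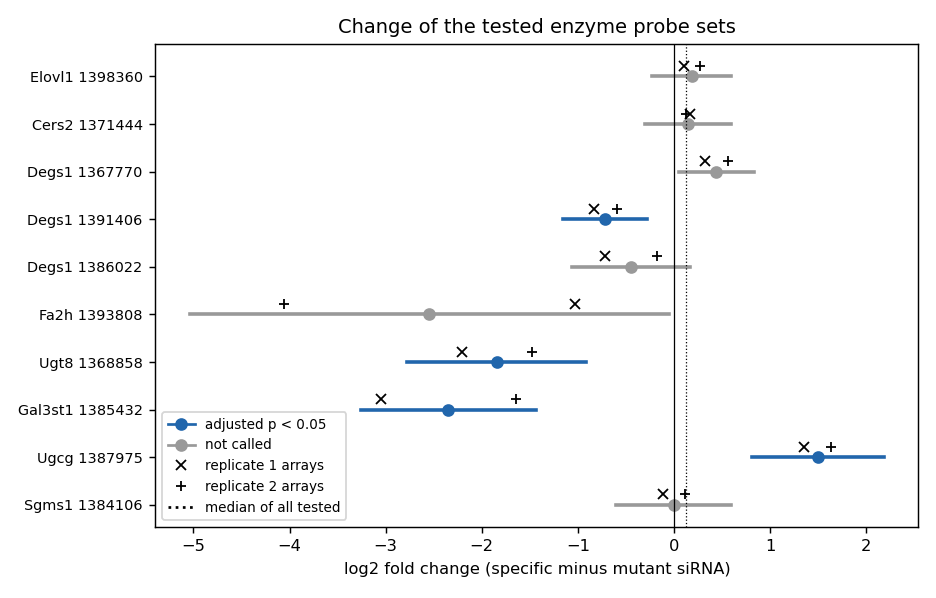
Log2 fold change (specific minus mutant siRNA) of the 10 tested probe sets, with the 95% interval from limma as a line, blue where the adjusted p is under 0.05. Black crosses and plus signs give the difference between the replicate 1 arrays and between the replicate 2 arrays, and the dotted line marks the median of all tested probe sets at 0.13. Ugt8 and Gal3st1 lie wholly below 0 and Ugcg wholly above it.

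Ugcg, the ceramide glucosyltransferase, opens the path to glucosylceramide and gangliosides. Its signals were 355 and 344 under the specific siRNA and 142 and 121 under the mutant siRNA. The groups were well apart and the arrays of each group close together (mean 349 ± 7.92 under the specific siRNA and 131 ± 15.0 under the mutant siRNA, SD, n = 2 each). The log2 fold change was 1.50 (95% interval 0.81 to 2.18, adjusted p = 0.0103 from limma), a 2.82-fold increase, with 1.36 between the replicate 1 arrays and 1.64 between the replicate 2 arrays. Without mutant siRNA replicate 2 it was 1.36 and just missed the threshold (adjusted p = 0.0502).

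Sgms1, a sphingomyelin synthase of the Golgi, had signals of 560 and 439 under the specific siRNA and 622 and 442 under the mutant siRNA in the probe set 1384106_at. The replicate 1 array was the brighter one in both groups, and the groups overlapped. The log2 fold change was -0.00 (95% interval -0.60 to 0.60, adjusted p = 0.999 from limma). Its other probe set, 1391903_at, had 8.0 and 52.9 under the specific siRNA and 17.1 and 97.5 under the mutant siRNA, under the array median on every array, and was not tested.

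Ugt8, Ugcg and Sgms1 draw on the same substrate, so their signals were also set against each other within each array, where the scaling of an array cancels. Levels of different probe sets are not comparable, and only the change of such a difference between groups carries meaning. The log2 signal of Ugt8 minus that of Ugcg was -1.95 and -2.13 under the specific siRNA and 1.62 and 0.98 under the mutant siRNA, a shift of -3.34. The shift was -3.57 between the replicate 1 arrays and -3.11 between the replicate 2 arrays, and the groups were apart by far more than the spread within either. Ugt8 minus Sgms1 was -2.61 and -2.48 under the specific siRNA and -0.51 and -0.89 under the mutant siRNA, a shift of -1.84. The exact two-sided permutation test over the 4 arrays gave p = 0.333 for both, which is the smallest p that this test allows with 2 arrays against 2, so that it cannot pass 0.05 here. The first shift joins 2 probe sets that limma had each called, and is no further evidence. The second repeats the change of Ugt8 itself, since that of Sgms1 was -0.00, and is no further evidence either.

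**Figure D3:**
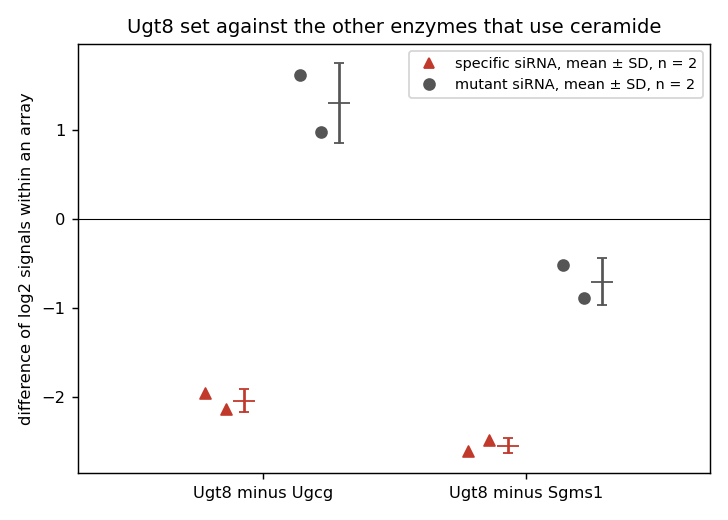
Difference of log2 signals within an array, for Ugt8 minus Ugcg and Ugt8 minus Sgms1, with red triangles for the specific siRNA arrays, grey circles for the mutant siRNA arrays, and mean ± SD (n = 2) beside them. For Ugt8 minus Ugcg the specific siRNA arrays lie at -1.95 and -2.13 and the mutant siRNA arrays at 1.62 and 0.98.

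Other genes of sphingolipid metabolism changed in both directions. Of a list of 62 genes 51 had a single-symbol probe set and 39 were tested, each by its brightest probe set by mean log2 signal over the 4 arrays. Of the 39, 9 were lower and 10 higher at an adjusted p under 0.05, beside 12.1% and 14.6% of all tested probe sets, and the median change was 0.14 beside 0.13 over all. A single bright probe set per gene is not the same basis as all probe sets. Nothing particular to the list, or to a role within it, is read from these counts or from those by role below.

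At the first step of the pathway, 3 genes were tested. Ormdl3, a brake on serine palmitoyltransferase, was at 1.05 (adjusted p = 0.0131 from limma), with signals of 940 and 997 (specific) against 428 and 571 (mutant). Leaving out mutant siRNA replicate 1 ended that call (adjusted p = 0.0824). Ormdl2 of the same family and Sptssa, a small activating subunit of the enzyme, were named after their values were seen. Ormdl2 was at 1.01 (adjusted p = 0.00527 from limma) and kept its call in each of the 13 alternatives fitted with limma. Sptssa was at -0.64 (adjusted p = 0.0265 from limma), and its call was lost without an intensity trend in the variance and without specific siRNA replicate 1, mutant siRNA replicate 1 or mutant siRNA replicate 2 (adjusted p between 0.0923 and 0.121).

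Among ceramide synthases other than Cers2, Cers4, which favours long acyl chains, had signals of 416 and 318 under the specific siRNA and 194 and 96.3 under the mutant siRNA and a log2 fold change of 1.49 (adjusted p = 0.0263 from limma). Cers6, which makes shorter chain ceramides, had 154 and 150 under the specific siRNA and 298 and 351 under the mutant siRNA and was at -1.01 (adjusted p = 0.0354 from limma). Both calls were fragile. Cers4 lost its call without specific siRNA replicate 1 or mutant siRNA replicate 2 (adjusted p = 0.0838 and 0.117), where it was at 1.32 and 0.97, and without the intensity trend (adjusted p = 0.0624). Cers6 did so with any array left out (adjusted p between 0.0521 and 0.189) and with no filter on low signals (adjusted p = 0.0804). In the elongation group 1 of 6 tested genes was lower and 1 higher, beside 12.1% and 14.6% of all tested probe sets. The higher one, Hacd1, a dehydratase of the elongation cycle, was at 1.22 (adjusted p = 0.0267 from limma), lost without specific siRNA replicate 2, mutant siRNA replicate 1 or mutant siRNA replicate 2 (adjusted p = 0.0968, 0.132 and 0.0545), and at 0.82 without the first of these. It also did not pass without the intensity trend (adjusted p = 0.0725).

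On the ganglioside path that follows Ugcg, 4 of 7 listed genes were tested. Of these 2 were lower and none was higher, beside 12.1% and 14.6% of all tested probe sets. St3gal5, which makes the simplest ganglioside GM3 from lactosylceramide, had signals of 265 and 219 under the specific siRNA and 840 and 992 under the mutant siRNA. B4galt6, a lactosylceramide synthase, had 354 and 442 under the specific siRNA and 1070 and 1233 under the mutant siRNA. The arrays of each group lay close together for both genes. The log2 fold changes were -1.84 and -1.46 (standard errors 0.23 and 0.23, adjusted p = 0.00247 and 0.00451 from limma), and both calls held in each of the 13 alternatives fitted with limma. B4galt5, the other lactosylceramide synthase, was at -0.13 and did not pass (adjusted p = 0.677), with its sign turned without specific siRNA replicate 1, and whether it differed from B4galt6 was not tested.

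In the group that handles ceramide and sphingosine, 3 of 7 tested genes were lower and 2 higher, beside 12.1% and 14.6% of all tested probe sets. Acer3, an alkaline ceramidase, was at -1.47, -1.82 and -1.28 in its 3 probe sets (adjusted p = 0.00973, 0.0141 and 0.0474 from limma), and the first did not pass without mutant siRNA replicate 2 (adjusted p = 0.0780). Cerk, ceramide kinase, was at -1.24 (adjusted p = 0.00759 from limma), with no call without mutant siRNA replicate 1 (adjusted p = 0.0555). Sphk1, sphingosine kinase 1, had signals of 1446 and 1383 under the specific siRNA and 3187 and 2918 under the mutant siRNA and was at -1.03 (adjusted p = 0.00615 from limma) with its call kept in the same 13 alternatives. Of 8 tested genes of lysosomal breakdown none was lower and 1 was higher, beside the same 12.1% and 14.6%. That gene, the sialidase Neu1, was at 1.05 (adjusted p = 0.0219 from limma), with a second probe set at 0.55 that did not pass (adjusted p = 0.237). The Neu1 call was lost without specific siRNA replicate 1, mutant siRNA replicate 1 or mutant siRNA replicate 2 (adjusted p = 0.0942, 0.108 and 0.0622), and without the intensity trend (adjusted p = 0.0563). Galc and Arsa, which break down galactosylceramide and sulfatide, did not pass by their brightest probe sets, at -0.37 and 0.50 (adjusted p = 0.249 and 0.283). A dimmer Arsa probe set was at 1.36 (adjusted p = 0.0124), and the brightest was at 1.01 and called without specific siRNA replicate 2 (adjusted p = 0.0140) but at -0.02 without specific siRNA replicate 1 (adjusted p = 0.965).

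Among the genes called higher by their brightest probe set, the largest change was that of Samd8, a relative of the sphingomyelin synthases that makes ceramide phosphoethanolamine. It had signals of 1333 and 1012 under the specific siRNA and 420 and 393 under the mutant siRNA, at 1.60 (adjusted p = 0.00320 from limma), while its other probe set was at -0.02 (adjusted p = 0.974). The dimmer probe set of Asah2, neutral ceramidase, named after its value was seen, was at 4.04 (adjusted p = 0.0149 from limma). Its signals were 179 and 280 under the specific siRNA, and 25.8 and 8.0 under the mutant siRNA. The mutant siRNA signals lie below the 25th percentile of their arrays, so the size of the change rests on signals near background. This probe set passed the filter through the 2 specific siRNA arrays alone, the group where it is high. Its call is therefore not independent of the filter. The brightest Asah2 probe set was at 1.61 and did not pass (adjusted p = 0.359). Plekha8, which carries glucosylceramide between Golgi membranes, disagreed between probe sets too. It was at 1.30 and 1.54 in a pair of them and at -1.70 in the third, each called (adjusted p = 0.00665, 0.0169 and 0.00252 from limma), so that no direction can be given for the gene. The remaining called genes of the list, 2 lower and 3 higher, lay between -0.99 and 1.02.

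**Figure D4:**
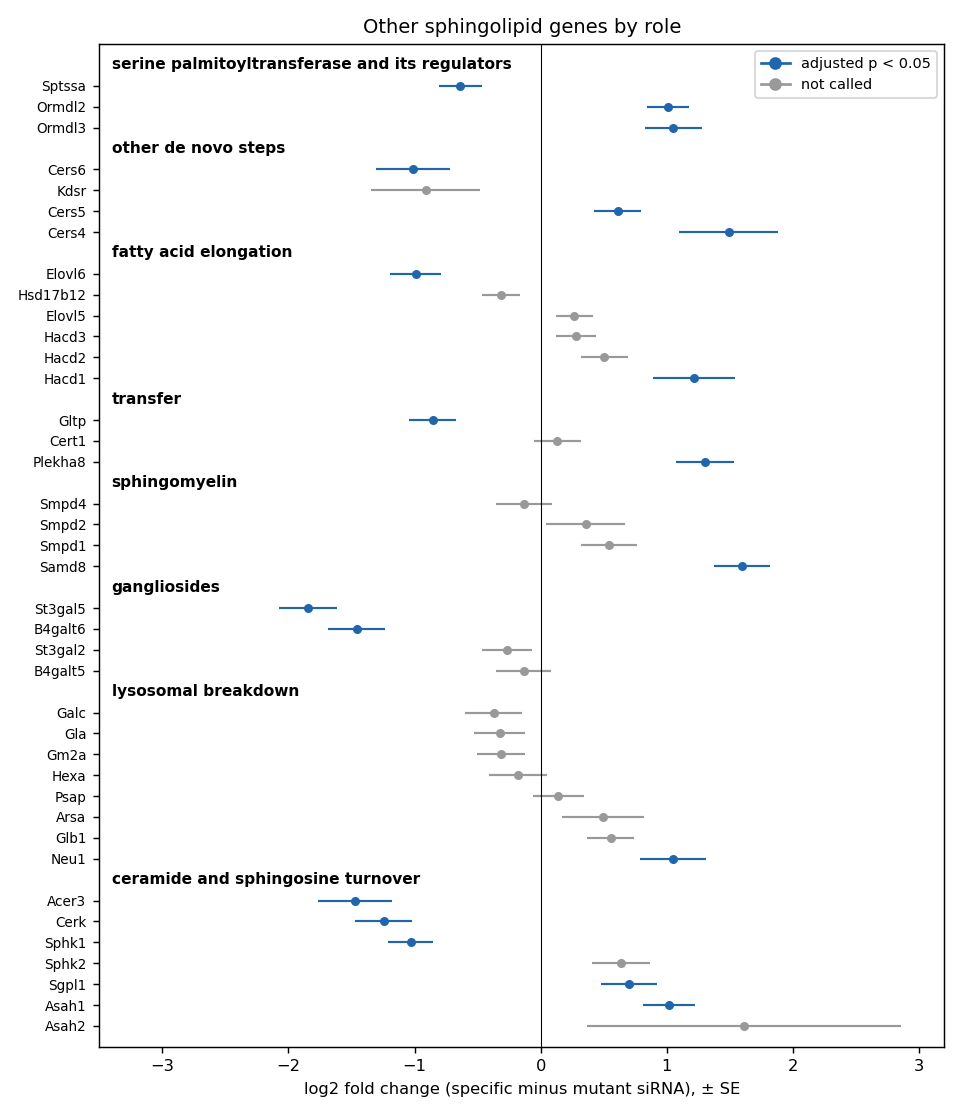
Log2 fold change (specific minus mutant siRNA) with its standard error for the 39 tested genes of the list, each by its brightest probe set, grouped by role and blue where the adjusted p is under 0.05. St3gal5 and B4galt6 lie at -1.84 and -1.46 in the ganglioside group, and Samd8 lies at 1.60.

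The profiles nearest to Ugt8 and Gal3st1 over the 4 arrays were found by Euclidean distance between log2 signals, each probe set centred on its own mean. Closest to Ugt8 were Rnf213, a large ubiquitin ligase, Hepacam, an adhesion molecule of glia, and Sh3pxd2b, a scaffold of podosomes, at distances of 0.10, 0.14 and 0.17. Closest to Gal3st1 were Vwa1, a matrix protein, Gda, guanine deaminase, and Art3, of the ADP-ribosyltransferase family, at distances of 0.27, 0.32 and 0.40. Only single-symbol probe sets of other genes were compared, out of 16125 tested probe sets in all. Of these, 70 lay within 0.5 of Ugt8 and 11 within 0.5 of Gal3st1. With 4 arrays nothing is read from such likeness.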

How the data were processed

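Biotin-labelled RNA of RT4D6 cells was hybridised to 4 Affymetrix Rat 230 2.0 arrays, grouped by the sample titles. The authors deposited intensity values, a linear MAS5 signal for each probe set. MAS5 is named in the submitters' processing notes without a version, and the 2% trimmed mean of each array is 500.2. The median normalization, detection filter and t-test of the paper are not in these values.

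Of 31099 probe sets 57 controls were left out, and 20826 of the other 31042 carry a single symbol in the platform annotation (436 carry several and 9780 none). Signals were turned to log2, centred on each array's median and fitted by lmFit and eBayes of limma 3.58.1 (R 4.3.3), letting the variance follow intensity. Tested probe sets had a signal at or above the median of the array on 2 or more arrays. The call was a Benjamini-Hochberg adjusted p under 0.05. The procedure was tested on simulated arrays. The median change over all tested probe sets was 0.13, and 0.05 with the signals as deposited. Printed changes are against 0, with this shift not subtracted.

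The members, gene lists and tests were chosen with earlier results of these data known. Named were all member probe sets, up to 6 called genes of the list in each direction and the 3 nearest profiles, with exceptions said in place. Alternatives were other scalings, treatments of low signals, filters and variance models, a replicate block, the methods' t-test and each array left out. Promoters are from RefSeq (GRCr8). Python 3.11.15, pandas 2.3.3 and matplotlib 3.10.9 made tables and plots. The number of arrays limits the precision.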

Additional observations from a re-analysis of the deposited data

How the results depend on the processing

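The member counts of 3 lower and 1 higher stayed within 1.5 times under the other scalings, treatments of low signals and filters. With the array median required on all 4 arrays, 8 member probe sets were tested and 2 were lower. Ugt8 and Fa2h were not tested under that filter. With an array left out they were between 1 and 3 lower and between 0 and 1 higher, the lowest without mutant siRNA replicate 1 (lower) and mutant siRNA replicate 2 (higher). On the list, 9 were lower and 10 higher, with 4 higher without the intensity trend, and between 4 and 8 lower and between 4 and 8 higher with an array left out. Over all probe sets 1956 were lower and 2348 higher, 1187 and 1177 without the trend, and between 706 and 2519 lower and between 924 and 2128 higher with an array left out. The t-test named in the methods was run here over all tested probe sets in both directions, without the paper's detection filter and 2-fold cut. It called 1 member lower and 1 higher unadjusted, and 0 lower and 0 higher after Benjamini-Hochberg. Over all probe sets it called 1386 lower and 2444 higher unadjusted, and 0 lower and 2 higher after Benjamini-Hochberg. Cers2 was between -0.0094 and 0.30 with an array left out, turned without specific siRNA replicate 1. Sgms1 was between -0.27 and 0.26 with an array left out, positive without specific siRNA replicate 2 (0.15) or mutant siRNA replicate 1, and at 0.0018 with a pseudocount of the 25th percentile. The Degs1 probe set 1391406_at lost its call without the trend (adjusted p = 0.0708). The shift of Ugt8 minus Ugcg stayed between -3.66 and -3.02 and that of Ugt8 minus Sgms1 between -2.03 and -1.66 with an array left out, and no other probe set of Ugcg or Sgms1 was tested that could replace those used. Fits with an array left out hold fewer samples. Like the main fit, they assume equal variation in both groups. The cause of the other moves was not tested.

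The submitters describe 2 sets of paired cells, but no label says that the replicate number marks the set. After removal of the group means, arrays of the same number correlated at 0.14 over 16125 probe sets. With the replicate block 4 members were lower and 2 higher, the added ones being Fa2h and the Degs1 probe set 1367770_at, and no other member changed its call. Signals near background limit Fa2h and the untested probe sets of Ugt8 and Sgms1.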
